A study of Homo sapiens with 9 samples.

Results

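The proteasome genes of Huh-7 hepatoma cells were followed across 3 groups of cells. They were taken as the protein-coding genes whose name is PSM, a letter from A to G and a number, with PSMB8 and PSMB9 left out, and this rule found 47 of the 58735 genes counted. Huh-7 is an established human hepatocellular carcinoma line that makes and secretes apolipoprotein B. The control group was Huh-7 cells, the Ako-3 group was 1 APOB knockout clone made by electroporating Cas9 with 3 gRNAs against exon 6, and the Mko-3 group was 1 MTTP-deficient Huh-7 clone made earlier. Cells of every group were washed in PBS and kept overnight in medium without serum before total RNA was taken, and poly(A) RNA was sequenced in 3 libraries per group. As each knockout is 1 clone, a difference between groups cannot be told apart from a difference between clones, and the p-values measure the spread between libraries of the same cells. In bulk RNA, fewer cells expressing a gene and less RNA per cell cannot be told apart either.

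The proteasome is the cell's main ATP-dependent protease for proteins tagged with ubiquitin, including proteins pulled back out of the endoplasmic reticulum. Its 20S core is a barrel of alpha and beta rings with the proteolytic sites inside, and the 19S particle that caps it has a base of ATPases that unfold substrates and a lid that removes ubiquitin. In hepatocytes, apolipoprotein B that is not loaded with lipid by MTTP is one of the known substrates. Of the 47 genes, 15 encode 20S subunits (8 alpha, 7 beta), 2 encode catalytic subunits of other tissues, 17 encode 19S subunits (6 base ATPases, 3 other base subunits, 8 lid subunits), 7 encode assembly chaperones and 5 encode activators or an inhibitor. The remaining 1, PSMC3IP (HOP2), is a recombination factor that carries the name of its partner PSMC3 and is no part of the proteasome.

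The libraries held 14638727 to 20179760 counts each, and the 47 genes took 0.430% to 0.483% of the counts in control libraries, 0.539% to 0.578% in Ako-3 and 0.597% to 0.602% in Mko-3 libraries, with no overlap between groups. The targeted genes followed the labels: mean APOB FPKM (fragments per kilobase of gene, scaled to library size) was 224 in control, 87.5 in Ako-3 and 218 in Mko-3 cells, and mean MTTP FPKM was 116, 105 and 16.0. All 8 hepatocyte markers examined were above 1 FPKM, while PTPRC, CD3E, CD68 and KDR, which define leukocytes and endothelium, had at most 3 counts in any library. Of the other markers, 1 of 6 for fibroblasts (PDGFRA), 2 of 5 for leukocytes (LYZ and CD14) and 2 of 4 for endothelium (PECAM1 and CDH5) were above 1 FPKM in at least 1 library. Summed leukocyte markers, nearly all of it LYZ, stood at 150 to 163 FPKM in control, 186 to 203 in Ako-3 and 188 to 202 in Mko-3 libraries. Summed hepatocyte markers stood at 4860 to 5020, 5560 to 5790 and 4800 to 5010 FPKM, and the part of these shifts in the results was not tested. Mitochondrial genes took 7.06% to 7.40% of the counts in Ako-3 libraries against 5.52% to 6.17% in control and 5.75% to 5.82% in Mko-3 libraries, and their part in the results was not tested. Among the control libraries, replicate 2 had the highest normalized level of 33 of the 45 proteasome genes tested and replicate 3 of 0, against 36.9% and 28.7% of all genes, so the control values of these genes differ between replicates in 1 direction.

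NFE2L1 (NRF1) is the transcription factor known for raising proteasome genes when the proteasome is inhibited, and it binds the antioxidant response element. The core of this element, TGACNNNGC on either strand, was sought in the RefSeq promoter windows of GRCh38.p14, which run from 250 bases before to 50 bases after each annotated start. A window was found for 41 of the 47 genes. The core was present for 14 of them (34.1%), against 16.1% of all 27305 genes with a window, with 1.22 windows per proteasome gene and 1.29 per gene in all. A match in these letters is not a bound site. The 27305 genes, also the background of the other cores and the CCAAT box below, were not limited to protein-coding or expressed genes. The runs of PSMD3, PSMA4, PSMB3 and PSMD12 are shown because these genes rose in both knockouts, and those of PSME1 and PSMG1 because they hold the same core and did not rise, with the core in capitals and each run written 5′ to 3′ on the strand of its gene. They lie at chr17:39980735-39980812 (+) for PSMD3, chr15:78540625-78540703 (+) for PSMA4, chr17:38752602-38752680 (+) for PSMB3, chr17:67366699-67366777 (-) for PSMD12, chr14:24136073-24136151 (+) for PSME1 and chr21:39183591-39183669 (-) for PSMG1.
PSMD3: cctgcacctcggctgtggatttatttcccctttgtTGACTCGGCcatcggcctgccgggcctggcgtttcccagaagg
PSMA4: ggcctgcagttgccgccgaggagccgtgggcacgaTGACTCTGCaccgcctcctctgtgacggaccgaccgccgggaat
PSMB3: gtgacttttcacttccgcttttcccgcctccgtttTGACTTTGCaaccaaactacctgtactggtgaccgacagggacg
PSMD12: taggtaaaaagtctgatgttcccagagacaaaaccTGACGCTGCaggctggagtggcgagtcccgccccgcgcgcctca
PSME1: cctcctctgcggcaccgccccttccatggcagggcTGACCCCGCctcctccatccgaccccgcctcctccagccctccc
PSMG1: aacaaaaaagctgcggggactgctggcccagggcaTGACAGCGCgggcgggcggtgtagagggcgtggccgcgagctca

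The 14 tested genes with the core had a median log2 change of 0.35 in Ako-3 and 0.31 in Mko-3 cells, and the 25 without it had 0.30 and 0.44. Those with the core include the chaperones and activators PSMD5, PSMD9, PSMG1, PSMG2, PSME1, PSME2 and PSME4, so core and role are mixed. The part of the core in the changes was not tested. The CCAAT box, written CCAAT on either strand, was present for 20 of the 41 genes (48.8%, against 39.7% of all genes). The core of ETS factors, CCGGAAG, was present for 16 (39.0%, against 12.2%). The core of nuclear respiratory factor 1, GCATGCGC, was present for 2 (4.88%, against 3.68%).

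In control cells the levels of the genes spread widely. By mean FPKM, which is per length and so allows genes to be compared, PSMA7 was highest at 166.5 ± 10.5 (SD, n = 3), followed by PSMB4 at 113.6 ± 6.72 and PSMB3 at 112.6 ± 6.40. PSMA7, PSMB4 and PSMB3 encode alpha4, beta7 and beta3 of the core. The lowest levels among tested genes were those of PSMG4 (chaperone PAC4) at 0.765 ± 0.116, PSMA2 (alpha2) at 0.833 ± 0.129 and PSMA6 (alpha1) at 0.494 ± 0.0394 FPKM. The median tested gene stood at 20.6 FPKM, and 34 of the 47 were above 10 FPKM. In 32 of the 45 pairs of neighbours in this order the ranges over the 3 control libraries overlapped, PSMB4 and PSMB3 among them, while PSMA7 lay above PSMB4 in every library.

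**Figure D1:**
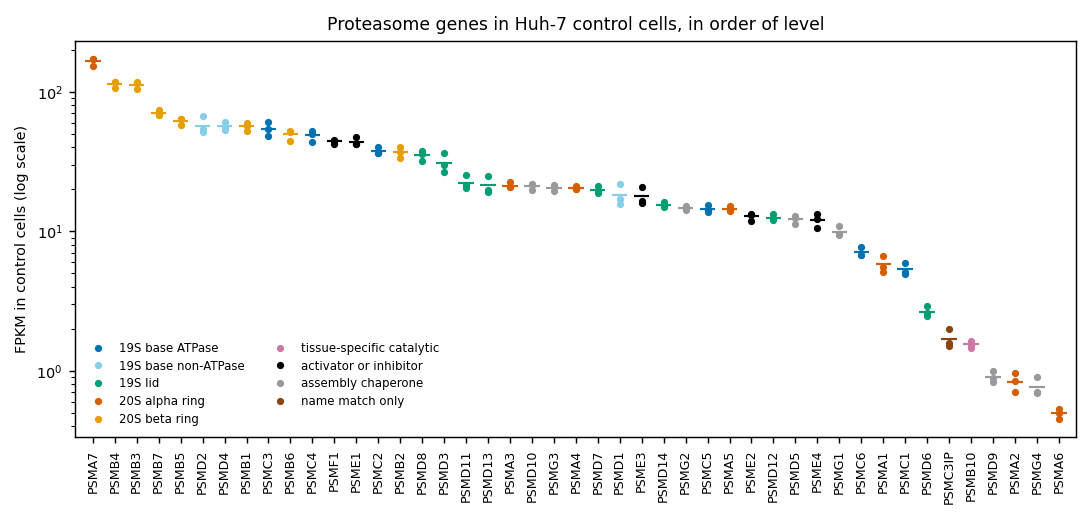
FPKM of each proteasome gene in the 3 Huh-7 control libraries (points) with the mean (bar), on a log axis, in order of level and coloured by role. PSMA7, PSMB4 and PSMB3 lie above 100 FPKM and PSMA6 is lowest at 0.494; PSMB11 and PSMA8, at or near 0, are left out.

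The subunits of 1 ring are built into the barrel in equal numbers, but the mRNA levels of the alpha ring genes differed by over 100 FPKM. PSMA1, PSMA2 and PSMA6 stood at 5.80, 0.833 and 0.494 FPKM, far below the 14.4 to 166.5 FPKM of the other alpha genes apart from the testis form PSMA8. In the deposited gene coordinates PSMA1, PSMA2, PSMA6, PSMB10 and PSMD9 lie under a protein-coding gene on the same strand. By the exons of GENCODE release 44, such genes share 14.1% of exon bases in PSMA6, 14.9% in PSMD9 and 17.2% in PSMA2. They share 26.7% in PSMA1 and 39.4% in PSMB10. These 5 proteasome genes had at most 394 counts in any library. How reads over overlapping genes were counted is not given in the sources used here. The low levels of PSMA1, PSMA2, PSMA6, PSMB10 and PSMD9 are therefore uncertain. Pseudogenes of PSMA6 held 25.1% as many counts as PSMA6 itself, those of PSMC1 5.73%, and those of the other genes with an annotated pseudogene at most 0.999%. A gene on the opposite strand covered 76.1% of the exon bases of PSMC1 (NRDE2), 31.2% of PSMD7, 30.1% of PSMC3IP (MLX) and 15.3% of PSMC5 (FTSJ3), and the counting is not stated to use strand.

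The first comparison was of Ako-3 with control cells, which addresses what loss of APOB does to the transcriptome. Proteasome genes were higher in Ako-3 cells by up to 1.74-fold among the subunits. Of the 45 genes tested, 30 rose and 0 fell at an adjusted p of at most 0.05 in the quasi-likelihood test of edgeR, with Benjamini-Hochberg adjustment over all genes. Among all 15787 genes tested 25.5% rose and 24.4% fell, and among the genes at an average log2 CPM of at least 5, where 36 of the proteasome genes lie and 27 rose, 37.1% of all genes rose. The share of proteasome genes that rose was above both backgrounds. The median log2 fold change was 0.31 over the 45 genes and -0.01 over all genes. With the further threshold of an absolute log2 change of 1, 0 of the 45 genes and 8.52% of all genes were called.

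The second comparison was of Mko-3 with control cells, which addresses loss of the lipid transfer protein MTTP. Here 34 of 45 genes rose and 1, PSME1, fell, by the same test against the same control libraries. Among all 15745 genes tested 26.9% rose and 27.1% fell, and at an average log2 CPM of at least 5, where 32 of 37 proteasome genes rose, 38.7% of all genes did. The median log2 fold change was 0.43 over the 45 genes and -0.01 over all genes. With both thresholds 1 of the 45 genes, PSMC3IP, was called, against 11.0% of all genes. As both comparisons use the same control libraries, in which replicate 2 was high for these genes, their values stand side by side and neither is a repeat of the other. Without control replicate 2 the numbers were 31 higher and 1 lower in Ako-3 and 36 higher and 1 lower in Mko-3 cells, and without control replicate 3, the lowest, 27 and 30 higher.

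**Figure D2:**
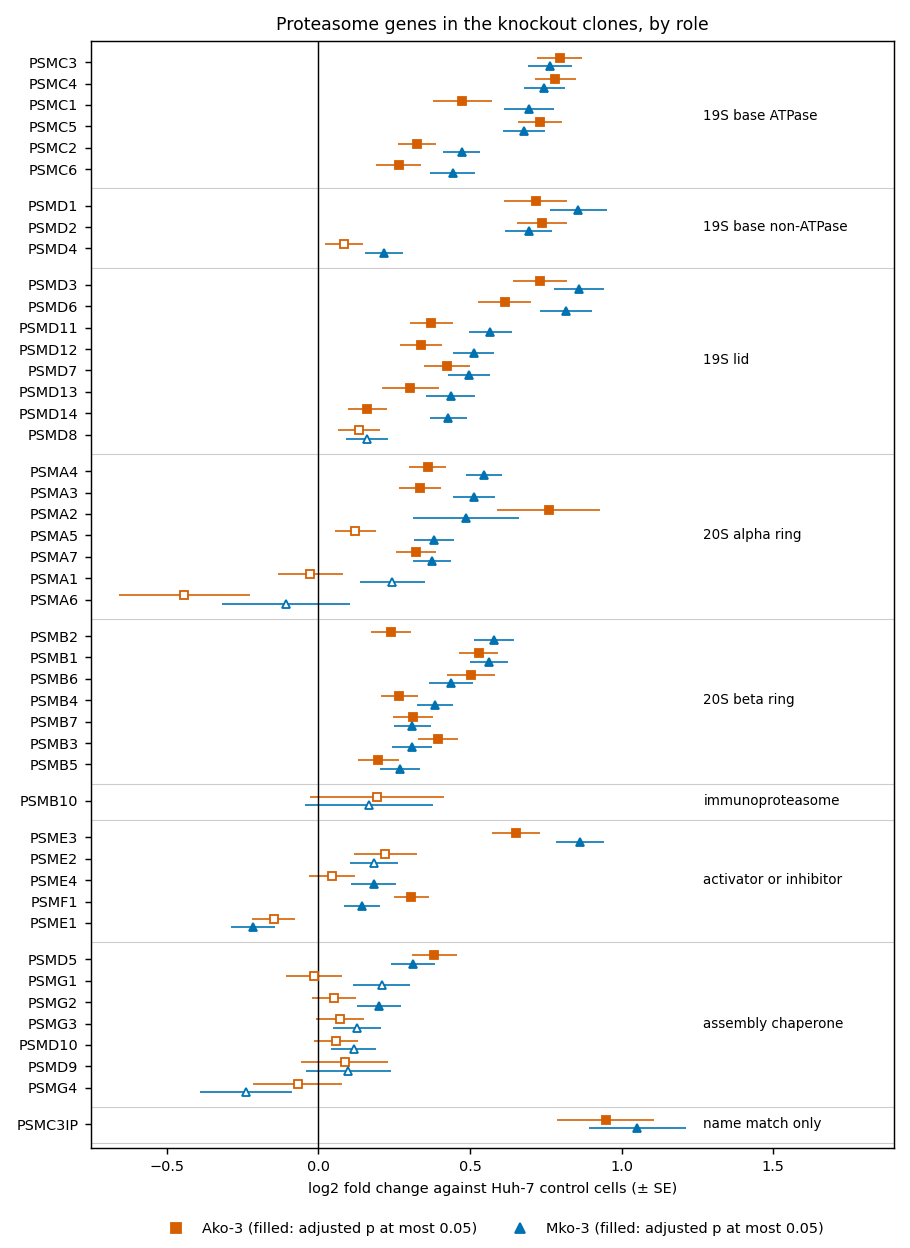
Log2 fold change against control cells (± SE) of the 45 tested genes in Ako-3 (orange squares) and Mko-3 cells (blue triangles), 3 libraries a group, grouped by role; filled symbols have an adjusted p of at most 0.05. The 6 ATPases of the 19S base lie between 0.26 and 0.80 and the assembly chaperones mostly near 0.

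The ATPases of the 19S base, the ring that unfolds substrates and threads them into the core, rose without exception: 6 of 6 in each knockout, beside 25.5% and 26.9% of all genes. Their median log2 change was 0.60 in Ako-3 and 0.69 in Mko-3 cells. PSMC3 (Rpt5) had 53.9, 61.1 and 48.2 FPKM in the control libraries, 92.0, 92.9 and 99.0 in Ako-3 and 92.8, 89.7 and 97.0 in Mko-3 libraries. Every knockout library lay above every control library. The log2 change of PSMC3 was 0.80 ± 0.07 (SE, adjusted p 2.7e-08) in Ako-3 and 0.76 ± 0.07 (2.2e-08) in Mko-3 cells. PSMC4 (Rpt3) had 49.6, 52.7 and 44.1 FPKM in control, 81.6, 85.0 and 85.5 in Ako-3 and 83.9, 80.3 and 83.1 in Mko-3 libraries. Its log2 fold change was 0.78 ± 0.07 (adjusted p 1e-08) and 0.75 ± 0.07 (8.3e-09). PSMC5 (Rpt6), at 13.8, 15.5 and 14.1 FPKM in control libraries, stood at 22.6, 23.9 and 25.7 in Ako-3 and 23.9, 22.2 and 23.9 in Mko-3 libraries. Its log2 fold change was 0.73 ± 0.07 (adjusted p 6.9e-08) and 0.68 ± 0.07 (5.4e-08). The groups of knockout libraries overlapped each other for all 3 of these genes.

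Among the other 3 ATPases, PSMC2 (Rpt1) had a log2 change of 0.32 in Ako-3 and 0.47 in Mko-3 cells, PSMC6 (Rpt4) of 0.26 and 0.44, and PSMC1 (Rpt2) of 0.47 and 0.70. Because reads of PSMC1 can come from NRDE2 on the opposite strand, its change is uncertain. PSMC1, PSMC2 and PSMC6 were also higher in Mko-3 than in Ako-3 cells, by 0.22, 0.15 and 0.18 on the log2 scale. The call for PSMC1 there was lost without Ako-3 replicate 1 (log2 difference 0.13, adjusted p 0.13).

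The scaffold subunits of the base, PSMD1 (Rpn2) and PSMD2 (Rpn1), rose about as much as the leading ATPases. PSMD2 had 54.1, 66.7 and 51.3 FPKM in control, 92.3, 92.1 and 102.8 in Ako-3 and 91.2, 92.6 and 96.6 in Mko-3 libraries. This is a log2 change of 0.74 ± 0.08 (adjusted p 1.6e-06) and 0.69 ± 0.08 (7.5e-07). PSMD1 had 15.7, 21.9 and 17.2 FPKM in control, 28.7, 28.7 and 32.6 in Ako-3 and 33.2, 33.3 and 33.3 in Mko-3 libraries, a log2 change of 0.72 and 0.86. Control replicate 2 was the highest control library for both. Without it the log2 change of PSMD1 in Mko-3 cells was 1.02. PSMD4 (Rpn10), a ubiquitin receptor of the base, differed from these. It had a log2 change of 0.08 ± 0.06 in Ako-3 cells (adjusted p 0.29), and it rose by 0.22 in Mko-3 cells.

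Of the 8 lid subunits, 7 rose in each knockout, beside 25.5% and 26.9% of all genes. Their median log2 change was 0.36 in Ako-3 and 0.50 in Mko-3 cells. PSMD3 (Rpn3), a structural subunit, had 30.0, 36.2 and 26.9 FPKM in control, 51.1, 48.4 and 55.1 in Ako-3 and 57.1, 54.4 and 58.4 in Mko-3 libraries, a log2 change of 0.73 and 0.86. PSMD6 (Rpn7) had a lower level, 2.65 ± 0.226 FPKM in control, 4.05 ± 0.155 in Ako-3 and 4.69 ± 0.161 in Mko-3 cells, and a log2 change of 0.61 and 0.82. PSMD11 (Rpn6), PSMD12 (Rpn5), PSMD7 (Rpn8) and PSMD13 (Rpn9) rose by 0.30 to 0.42 on the log2 scale in Ako-3 and by 0.44 to 0.57 in Mko-3 cells. The change of PSMD7 is uncertain, as 31.2% of its exon bases lie in a gene on the opposite strand. PSMD14 (Rpn11) is the deubiquitinase that cuts ubiquitin chains off the substrate. It had 15.3, 16.3 and 14.9 FPKM in control, 16.8, 18.0 and 17.2 in Ako-3 and 20.9, 21.0 and 21.1 in Mko-3 libraries. Its rise of 0.16 ± 0.06 in Ako-3 cells (adjusted p 0.041) was near the threshold and was lost without control replicate 1 (adjusted p 0.083), without control replicate 3 (0.11), without any 1 of the Ako-3 libraries (0.052 to 0.17), and with the replicate block (0.10). Its rise of 0.43 ± 0.06 in Mko-3 cells (5e-06) was kept in every alternative run. PSMD13 in Ako-3 cells was likewise lost without control replicate 1 (0.07), control replicate 3 (0.076) or Ako-3 replicate 3 (0.071). PSMD8 (Rpn12), the last subunit to join the lid, had a log2 change of 0.13 in Ako-3 (adjusted p 0.12) and 0.16 in Mko-3 cells (0.053), and neither passed the test.

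**Figure D3:**
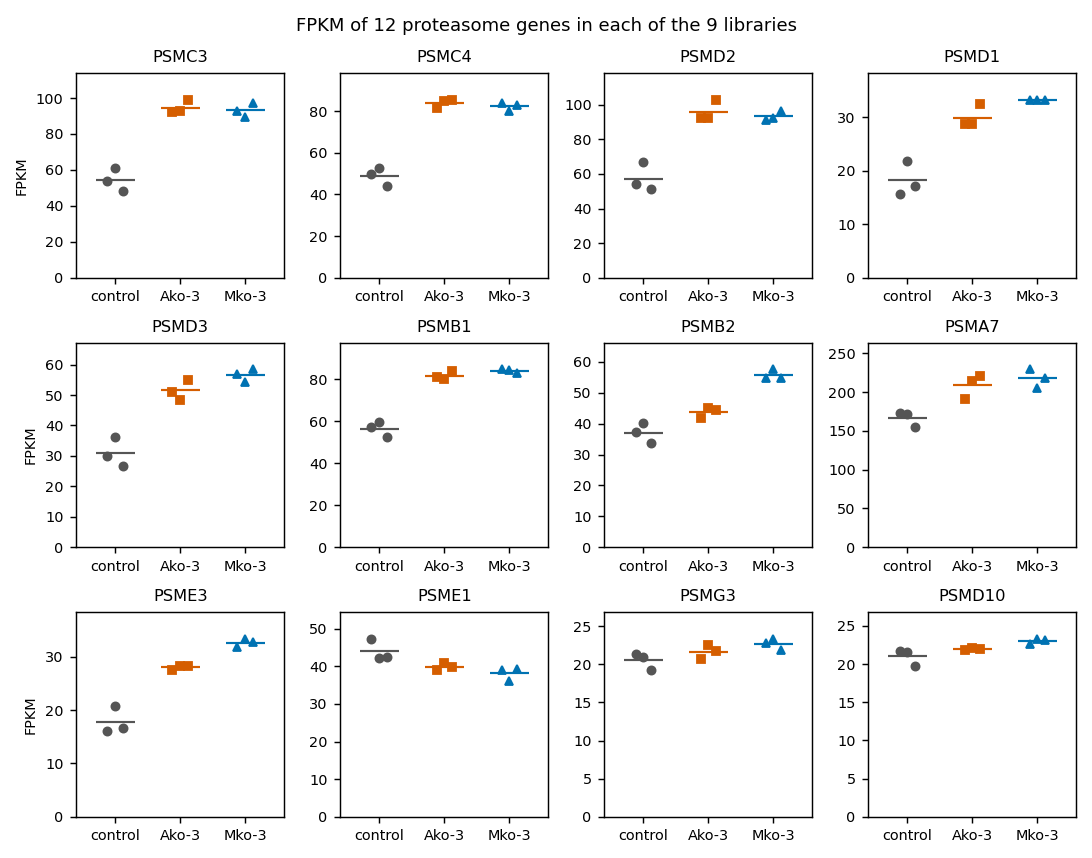
FPKM of 12 proteasome genes in each library (points) with the group mean (bar), on axes that start at 0, for 3 control, 3 Ako-3 and 3 Mko-3 libraries. PSMC3, PSMC4, PSMD2, PSMD3, PSMB1 and PSMA7 separate both knockouts from control. PSMB2, PSMD1, PSME3 and, by small margins, PSMD10 separate all 3 groups, and PSME1 lies lower in the knockouts.

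The beta ring of the 20S core carries the proteolytic sites, and its 7 standard genes rose in both knockouts, beside 25.5% and 26.9% of all genes. Their median log2 change was 0.31 in Ako-3 and 0.38 in Mko-3 cells. PSMB1 (beta6, a structural subunit) had 57.3, 59.8 and 52.5 FPKM in control, 80.9, 80.3 and 83.9 in Ako-3 and 84.8, 84.7 and 83.0 in Mko-3 libraries. Its log2 fold change was 0.53 ± 0.06 (adjusted p 9.9e-07) and 0.56 ± 0.06 (1.9e-07). The genes of the active sites rose by different amounts: PSMB6 (beta1, caspase-like) by 0.50 and 0.44, PSMB7 (beta2, trypsin-like) by 0.31 and 0.31, and PSMB5 (beta5, chymotrypsin-like) by 0.20 and 0.27 on the log2 scale. PSMB5 had 64.2, 63.9 and 58.1 FPKM in control and 67.1, 70.8 and 76.1 in Ako-3 libraries, and its call there was lost without Ako-3 replicate 2 (adjusted p 0.051), Ako-3 replicate 3 (0.13) or control replicate 3 (0.086), and with the replicate block (0.052). The abundant subunits PSMB3 and PSMB4 rose by 0.40 ± 0.07 (adjusted p 4.2e-05) and 0.27 ± 0.06 (0.0011) in Ako-3 and by 0.31 ± 0.07 (0.0004) and 0.38 ± 0.06 (1.5e-05) in Mko-3 cells. PSMB2 (beta4) had 37.3, 40.1 and 33.6 FPKM in control, 41.8, 45.0 and 44.4 in Ako-3 and 54.9, 57.6 and 54.8 in Mko-3 libraries. It was the subunit that differed between the clones at the smallest adjusted p, with a log2 difference of 0.34 ± 0.04 (2e-10) in Mko-3 over Ako-3 cells. The 108 other genes tested within 5 Mb of PSMB2 had a median difference of 0.30 between the clones, close to that of PSMB2 itself, and of -0.23 in Ako-3 and 0.07 in Mko-3 cells against control. The part of this neighbourhood in the difference was not tested.

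Of the 7 tested alpha genes, which form the outer gated rings, 4 rose in Ako-3 and 5 in Mko-3 cells, and 0 fell. Among all genes 25.5% and 26.9% rose. The most abundant member, PSMA7 (alpha4), had 172.9, 172.3 and 154.4 FPKM in control, 191.6, 214.1 and 220.3 in Ako-3 and 229.1, 205.2 and 218.7 in Mko-3 libraries, a log2 change of 0.32 and 0.37. PSMA3 (alpha7) and PSMA4 (alpha3) rose by 0.34 and 0.36 in Ako-3 and by 0.51 and 0.55 in Mko-3 cells. PSMA5 (alpha5) had a log2 change of 0.12 in Ako-3 cells (adjusted p 0.15) and rose by 0.38 in Mko-3 cells. The 3 alpha genes with few counts were less certain. PSMA2, with 57 to 149 counts, rose by 0.76 ± 0.17 in Ako-3 cells (adjusted p 0.00093), and its rise of 0.49 ± 0.18 in Mko-3 cells (0.023) was lost without Mko-3 replicate 1 (0.11), Mko-3 replicate 2 (0.055), control replicate 2 (0.069) or control replicate 3 (0.055), and with DESeq2 (0.07). PSMA6, with 40 to 65 counts, had a log2 change of -0.44 ± 0.22 in Ako-3 (adjusted p 0.095) and -0.11 ± 0.21 in Mko-3 cells (0.69). PSMA1 had -0.03 ± 0.11 (0.86) and 0.24 ± 0.11 (0.062), and its sign in Ako-3 cells turned without control replicate 2 (0.08) and without Ako-3 replicate 3 (0.001).

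Subunits that replace standard ones in other tissues had low counts. PSMA8, the testis form of alpha4, had 0 counts in all 9 libraries, and PSMB11, the thymus form of beta5, had at most 1 count, so neither was tested. PSMB10 (beta2i), the 1 immunoproteasome subunit that the rule takes in, stood at 1.54 ± 0.0808 FPKM in control, 1.76 ± 0.403 in Ako-3 and 1.74 ± 0.197 in Mko-3 cells. Its level is uncertain, as 39.4% of its exon bases lie in a protein-coding gene on the same strand. Its log2 fold change was 0.19 ± 0.22 (adjusted p 0.50) and 0.17 ± 0.21 (0.53) on 46 to 82 counts, and the sign in Ako-3 cells turned without Ako-3 replicate 2 (-0.02). Of the immunoproteasome genes outside the rule, PSMB8 (beta5i) rose from a mean of 0.307 FPKM to 0.696 and 0.898, a log2 change of 1.18 ± 0.36 (adjusted p 0.0095) and 1.53 ± 0.30 (0.00019), and PSMB9 (beta1i) had too few counts to be tested against control. PSMB8 itself had only 12 to 22 counts in control, 19 to 48 in Ako-3 and 42 to 49 in Mko-3 libraries. Its Ako-3 replicate 1, at 0.3825 FPKM, lay within the control range of 0.213 to 0.403. At these levels PSMB8 mRNA was under 1 FPKM beside 71.3 FPKM of PSMB5 in Ako-3 cells.

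Activators open the gate of the core without ATP, and they did not move together. PSME3 (PA28 gamma), the nuclear activator, had 16.1, 20.8 and 16.6 FPKM in control, 27.6, 28.2 and 28.3 in Ako-3 and 31.8, 33.3 and 32.8 in Mko-3 libraries. The 3 groups did not overlap, and its log2 fold change was 0.65 ± 0.08 (adjusted p 1.4e-06) and 0.86 ± 0.08 (2.9e-08). PSME1 (PA28 alpha), the cytosolic activator known for its induction by interferon gamma, had 47.3, 42.1 and 42.6 FPKM in control, 38.9, 40.8 and 39.7 in Ako-3 and 39.1, 36.2 and 39.4 in Mko-3 libraries. Its log2 fold change was -0.15 ± 0.07 in Ako-3 cells (adjusted p 0.088). It fell by 0.22 on the log2 scale in Mko-3 cells (± 0.07, adjusted p 0.015), a call lost without control replicate 1 (0.077), without Mko-3 replicate 2 (0.11), and with no filter on low counts (0.054). Without control replicate 2 the Ako-3 value was -0.18 and passed (0.036). PSME2 (PA28 beta), the partner of PSME1 in the same heptamer, had a log2 change of 0.22 ± 0.10 in Ako-3 (adjusted p 0.085) and 0.18 ± 0.08 in Mko-3 cells (0.057).

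PSME4 (PA200), an activator known from spermatogenesis and DNA repair, had a log2 change of 0.04 in Ako-3 cells (adjusted p 0.65), which turned to -0.05 without control replicate 1, and rose by 0.18 ± 0.07 in Mko-3 cells (0.043). That call was lost without control replicate 1 (log2 fold change 0.10, adjusted p 0.23), control replicate 3 (0.068) or any 1 of the Mko-3 libraries (0.063 to 0.12), with at least 10 counts in every library (0.053) and with no robust dispersion (0.051). PSMF1 (PI31), named as an inhibitor of the core, had 44.4, 45.5 and 42.3 FPKM in control, 53.9, 54.0 and 56.0 in Ako-3 and 49.8, 48.5 and 49.0 in Mko-3 libraries. It rose by 0.31 ± 0.06 in Ako-3 cells (adjusted p 0.00021). Its rise of 0.14 ± 0.06 in Mko-3 cells (0.043) was lost without control replicate 3 (0.11) or any 1 of the Mko-3 libraries (0.076 to 0.13), with the replicate block (0.056) and with at least 10 counts in every library (0.055). It was the 1 proteasome gene that was lower in Mko-3 than in Ako-3 cells, by a log2 difference of -0.16 ± 0.04 (adjusted p 0.00068).

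The assembly chaperones bind parts of the proteasome while it is built and leave the finished particle. Most of those that the name rule takes in did not pass the test. POMP, a chaperone of the core outside the rule, is not counted here and rose by 0.43 in Ako-3 and 0.56 in Mko-3 cells on the log2 scale. In Ako-3 cells 1 of 7, PSMD5, rose, and in Mko-3 cells 2 of 7, PSMD5 and PSMG2, with medians of 0.06 and 0.13 on the log2 scale. These counts are near the shares of all genes that rose, 25.5% and 26.9%. PSMD5 (S5b), which binds the ATPase PSMC2, had 11.2, 12.9 and 12.5 FPKM in control, 16.3, 15.8 and 15.7 in Ako-3 and 15.0, 15.6 and 15.2 in Mko-3 libraries, a log2 change of 0.38 ± 0.07 (adjusted p 0.00021) and 0.31 ± 0.07 (0.0012). PSMG2 (PAC2) rose by 0.20 in Mko-3 cells (adjusted p 0.024), which was lost without Mko-3 replicate 2 (0.063), Mko-3 replicate 3 (0.082) or control replicate 3 (0.067). PSMD10 (gankyrin), a base chaperone known as an oncoprotein of liver cancer, had 21.8, 21.7 and 19.8 FPKM in control, 21.8, 22.2 and 22.0 in Ako-3 and 22.6, 23.3 and 23.2 in Mko-3 libraries, with log2 fold changes of 0.06 ± 0.07 and 0.12 ± 0.07 (adjusted p 0.54 and 0.19). PSMG1 (PAC1) had -0.02 and 0.21, PSMG3 (PAC3) 0.07 and 0.13, PSMD9 (p27) 0.09 and 0.10, and PSMG4 (PAC4) -0.07 ± 0.15 and -0.24 ± 0.15 (adjusted p 0.73 and 0.19), and 0 of these passed. The signs of PSMG1 and PSMG4 in Ako-3 cells turned when 1 library was left out.

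**Figure D4:**
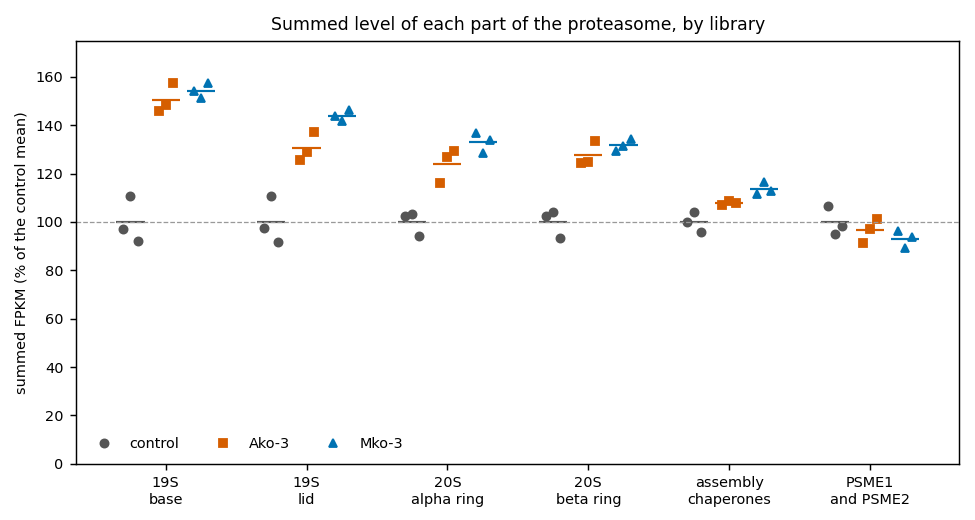
Summed FPKM of each set of proteasome genes in each library, as a percent of the control mean, for 3 control, 3 Ako-3 and 3 Mko-3 libraries; bars are group means and the axis starts at 0. The 19S base rose by 50.6% and 54.3%, the assembly chaperones of the name rule, without POMP, by 7.78% and 13.7%.

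Summed over their genes, the parts of the proteasome rose by different amounts. The summed FPKM of the 9 base genes was 300.1 ± 28.9 in control, 451.9 ± 18.8 in Ako-3 and 463.2 ± 9.91 in Mko-3 cells, that is 50.6% and 54.3% higher. The 8 lid genes rose from 160.4 ± 15.6 to 209.5 ± 9.67 and 230.7 ± 3.63 (30.6% and 43.8%), and the 15 core genes from 731.3 ± 40.7 to 925.0 ± 38.9 and 966.9 ± 13.7 (26.5% and 32.2%). In these 3 sums every knockout library lay above every control library. The ratio of summed 19S to summed 20S FPKM was 0.598, 0.671 and 0.619 in control libraries, 0.718, 0.711 and 0.717 in Ako-3 and 0.719, 0.713 and 0.721 in Mko-3 libraries, so the groups of knockout libraries lay above control and overlapped each other. The ratio of base to lid was 1.86 to 1.88 in control, 2.15 to 2.17 in Ako-3 and 2.00 to 2.02 in Mko-3 libraries, with no overlap between groups. The chaperones of the name rule, at 80.1 ± 3.20, 86.4 ± 0.622 and 91.1 ± 2.04 FPKM, fell relative to the core from 0.110 ± 0.00281 to 0.0935 ± 0.00364 and 0.0943 ± 0.00308. POMP, with means of 39.5 FPKM in control, 53.4 in Ako-3 and 58.8 in Mko-3 cells, is outside this sum. The sum of PSME1 and PSME2 was 56.8 ± 3.46, 54.8 ± 2.93 and 52.9 ± 1.98 FPKM, with overlap between groups. These sums rest mostly on the abundant genes and are descriptions with no test.

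PSMC3IP, which the name rule takes in but which is no proteasome gene, had the largest fold change of the 45 in each knockout. It had 1.57, 1.99 and 1.49 FPKM in control, 3.35, 3.14 and 3.23 in Ako-3 and 3.36, 3.38 and 3.79 in Mko-3 libraries, on 70 to 161 counts. Its log2 fold change was 0.95 ± 0.16 in Ako-3 cells (adjusted p 5.6e-05) and 1.05 ± 0.16 in Mko-3 cells (1.1e-05). Without control replicate 3 the Mko-3 value was 0.97, below the threshold of 1, and without control replicate 2 both values were above it, at 1.07 and 1.19. As 30.1% of its exon bases lie in MLX on the opposite strand, its counts are uncertain. Without it, 29 of 44 genes rose in Ako-3 and 33 of 44 in Mko-3 cells.

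Between the clones, 21 of the 45 genes were higher in Mko-3 than in Ako-3 cells and 1, PSMF1, was lower, against 21.1% and 20.6% of all 15528 genes tested. At an average log2 CPM of at least 5, 19 of 37 proteasome genes and 29.5% of all genes were higher, and with both thresholds 0 of 45 and 5.73% were called. The differences were small, with a median log2 difference of 0.11 and none above 0.34. After PSMB2, the smallest adjusted p-values belonged to PSMD14, with a log2 difference of 0.27 ± 0.05 (1.3e-06), PSMA5, with 0.26 ± 0.05 (1.7e-05), and PSME3, with 0.21 ± 0.05 (7.2e-05). Genes within 5 Mb had a median difference of 0.07 around PSMD14, 0.13 around PSMA5, -0.02 around PSME3 and 0.17 around PSMA3, which itself differed by 0.18, and their part in these differences was not tested. By class, 6 of 8 lid genes, 4 of 7 alpha genes, 3 of 6 ATPases and 2 of 7 beta genes were higher in Mko-3 cells. Of the 22 calls, 12 were lost in at least 1 alternative and 10 were not. Leaving out 1 library gave between 15 and 20 genes higher in Mko-3 cells. The fit of all 9 libraries gave 14 higher and DESeq2 gave 17, against 21 in the main fit.

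The 47 genes lie on 17 chromosomes, 8 of them on chromosome 17 and 8 on chromosome 14. The 8 on chromosome 17 (PSMB3, PSMB6, PSMC3IP, PSMC5, PSMD3, PSMD11, PSMD12 and PSME3) rose in both knockouts, with median log2 fold changes of 0.58 in Ako-3 and 0.62 in Mko-3 cells. The other genes of chromosome 17 had medians of 0.01 and -0.01, and 29.0% and 25.7% of them rose. Of the 7 tested genes on chromosome 14, 4 rose in each knockout, with medians of 0.22 and 0.27, beside -0.01 and 0.01 for the other genes there, of which 23.5% and 25.2% rose. Genes within 5 Mb of each proteasome gene had medians between -0.23 and 0.20 in Ako-3 and between -0.26 and 0.23 in Mko-3 cells. Between the clones these medians lay between -0.22 and 0.30.

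Of 12 further proteasome genes whose name does not begin with PSM, 6 rose and 1 fell in Ako-3 cells, and 7 rose and 3 fell in Mko-3 cells, beside 25.5% of all genes that rose and 24.4% that fell in Ako-3 and 26.9% and 27.1% in Mko-3 cells. ADRM1 (Rpn13), another ubiquitin receptor, had 51.1, 55.2 and 46.3 FPKM in control, 68.8, 73.4 and 78.8 in Ako-3 and 78.5, 75.7 and 77.6 in Mko-3 libraries. Its log2 change was 0.53 and 0.59. SEM1, the small subunit that ties the lid together, rose by 0.50 and 0.57, and POMP, the chaperone that matures the core, by 0.43 and 0.56. The ubiquitin ligase UBE3C, which acts on the 26S particle, rose by 0.37 and 0.64, and the adaptor ECPAS by 0.24 and 0.57. The deubiquitinase USP14 rose by 0.32 and 0.30, while the other deubiquitinase UCHL5 had -0.19 and -0.06 and did not pass. ZFAND5, an activator induced in muscle wasting, fell by 0.45 and 0.21 on the log2 scale. AKIRIN2, which carries proteasomes into the nucleus, had 36.8, 36.7 and 33.6 FPKM in control, 35.7, 33.7 and 37.9 in Ako-3 and 24.2, 23.2 and 21.4 in Mko-3 libraries, with a log2 change of 0.00 in Ako-3 cells and a fall by 0.65 in Mko-3 cells. Mko-3 and Ako-3 cells differed for AKIRIN2 at an adjusted p of 1.1e-14.

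Of 9 genes of the transcription factors known to act on proteasome genes and the enzymes that process them, 0 rose, 5 fell in Ako-3 and 6 fell in Mko-3 cells, beside 24.4% and 27.1% of all genes that fell. NFE2L1, a factor held in the endoplasmic reticulum membrane and freed by cleavage, had 116.7, 100.6 and 117.0 FPKM in control, 99.0, 99.6 and 92.9 in Ako-3 and 94.5, 94.1 and 94.1 in Mko-3 libraries, a log2 change of -0.20 (adjusted p 0.015) and -0.25 (0.0017). NFE2L2 (NRF2) had -0.04 and -0.04 and did not pass. The small MAF genes, whose products pair with both factors, fell: MAFF by 1.23 and 0.74, MAFK by 1.18 and 0.71 and MAFG by 0.91 and 0.46 on the log2 scale. BACH1, which competes for the same sites, fell by 0.44 and 0.45. DDI2, the protease that cleaves NFE2L1, had -0.02 and 0.13, and NGLY1, which removes its sugars, had -0.16 in Ako-3 (adjusted p 0.082) and fell by 0.23 in Mko-3 cells. These are mRNA levels, and cleavage and nuclear entry of NFE2L1 were not measured.

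**Figure D5:**
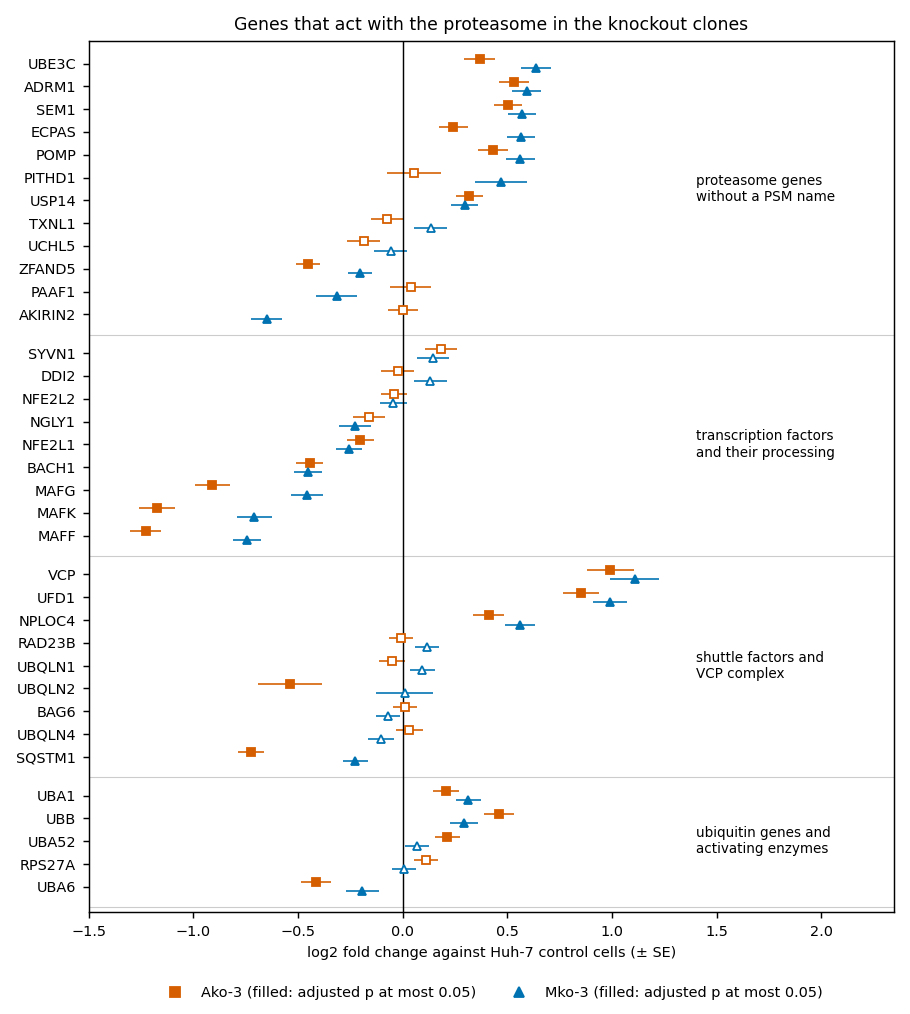
Log2 fold change against control cells (± SE) of 35 genes that act with the proteasome, in Ako-3 (orange squares) and Mko-3 cells (blue triangles), 3 libraries a group; filled symbols have an adjusted p of at most 0.05. VCP and UFD1 lie near 1 in both knockouts and the small MAF genes lie below -0.4.

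Of 9 genes that bring substrates to the proteasome, 3 rose in each knockout, 2 fell in Ako-3 and 1 fell in Mko-3 cells. The shares of all genes that rose, 25.5% and 26.9%, were near this. The 3 that rose were the genes of the segregase that pulls ubiquitinated proteins out of the endoplasmic reticulum membrane. VCP (p97) had 88.9, 123.3 and 89.1 FPKM in control, 195.3, 197.3 and 207.8 in Ako-3 and 212.7, 217.6 and 224.8 in Mko-3 libraries, a log2 change of 0.99 ± 0.11 (adjusted p 5e-05) and 1.11 ± 0.12 (4.6e-05). Its cofactors UFD1 and NPLOC4 rose by 0.85 and 0.41 in Ako-3 and by 0.99 and 0.56 in Mko-3 cells. SQSTM1 (p62), the receptor that leads ubiquitinated cargo to autophagy, fell by 0.72 and 0.23 on the log2 scale. UBQLN2 fell in Ako-3 cells, by 0.54, and the shuttle factors RAD23B, UBQLN1 and UBQLN4 did not pass in either knockout.

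Of 5 ubiquitin genes and activating enzymes, 3 rose and 1 fell in Ako-3 cells, and 2 rose and 1 fell in Mko-3 cells, beside the same shares of all genes (25.5% and 24.4%, 26.9% and 27.1%). UBB, a polyubiquitin gene known for its response to stress, rose by 0.46 and 0.29 on the log2 scale. UBA1, the main enzyme that activates ubiquitin, rose by 0.21 and 0.31, and the second enzyme, UBA6, fell by 0.41 and 0.19. Over all the further genes, PSMB8 among them, 13 of 36 tested rose and 9 fell in Ako-3 cells, and 13 rose and 11 fell in Mko-3 cells, beside the same shares of all genes.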

How the data were processed

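Poly(A) RNA of Huh-7 control, Ako-3 and Mko-3 cells was sequenced in 3 libraries per group, labelled as biological replicates. The authors deposited raw counts per gene, made with HISAT2 2.0.5 on hg38 and featureCounts 1.5.0-p3 per the submitters' processing notes, and FPKM values scaled over all 9 libraries together. The annotation release and the treatment of overlapping genes and strand are not given in the sources used here. Counts were tested with edgeR 4.0.16 in R 4.3.3 (TMM, robust quasi-likelihood F test, low genes removed by filterByExpr with its minimum set to 10 counts), in a fit of the 6 libraries of each comparison over all genes, with Benjamini-Hochberg adjusted p-values. DESeq2 1.42.0, another normalization and filter, a fit of all 9 libraries, a replicate block and leaving out each library were alternatives. The standard error is the log2 fold change over the square root of F. Values of FPKM are deposited means ± SD. At this depth genes under about 100 counts have wide errors. Genes given full statistics were, in each comparison and direction, up to 4 with the smallest adjusted p, those past both thresholds, and the 3 highest and lowest in control, and other genes of each role were given values as their role was described. The genes and lists were chosen with earlier results of these data known. Exon overlaps come from GENCODE release 44 and promoters from RefSeq, counted over every start of a gene, a choice made after seeing the data. The fit was also run on simulated counts with the same dispersion for all genes, unlike these libraries, and no result here rests on that run. Of the further gene lists, 2 genes are not reported here.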

Additional observations from a re-analysis of the deposited data

How the results depend on the processing

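Each comparison was repeated under 13 alternatives: DESeq2, relative log expression factors, no filter, at least 10 counts in every library, no robust dispersion, all 9 libraries in 1 fit, the replicate block, and 6 fits without 1 library. Over the numbers of called genes and the medians, 114 values kept their direction and stayed within 1.5 times the main value, and 3 did not. These were the genes past both thresholds, of which there were 0 in Ako-3 cells (0 to 1 without 1 library) and 1 in Mko-3 cells (0 to 2 without 1 library). Leaving out control replicate 2 added PSMC3IP in Ako-3 and PSMD1 in Mko-3 cells, and leaving out control replicate 3 took PSMC3IP away in Mko-3 cells. Leaving out 1 library gave log2 fold changes from -0.109 to 0.081 for PSMA1 and from -0.134 to 0.058 for PSMG4 in Ako-3 cells, and PSMG1 (-0.06 to 0.05), PSME4 (-0.05 to 0.12) and PSMB10 (-0.02 to 0.29) also turned sign there, so the direction of these 5 is not settled. The fall of PSME1 in Mko-3 cells was lost with no filter (adjusted p 0.054). Of the genes called, 27 of 30 in Ako-3 and 30 of 35 in Mko-3 cells were called under every alternative. Same-numbered libraries did not deviate together (correlations from -0.07 to 0.06), so the replicate numbers share only a number, and with the replicate block 28, 35 and 22 genes were called against 30, 35 and 22 without it. The order of levels from TPM was that from FPKM, which is no separate check, as TPM is proportional to FPKM within a library. Depth limits PSMA2, PSMA6, PSMB10, PSMC3IP, PSMD9 and PSMG4, which had at most 165 counts in each library. With the first listed start of each gene only, an alternative added after seeing the data, 12 of 41 proteasome genes (29.3%) and 13.6% of all genes held the antioxidant response element core.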
